A study of Mus musculus with 4 samples.

Results

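The genes described are 10 regulators of messenger RNA processing in CAD cells, chosen by symbol from the 24341 genes of the deposited table, and all 10 were found there. They comprise Ptbp1, the splicing repressor of non-neuronal cells and progenitors, and 9 regulators grouped here as neuronal, namely Ptbp2, Nova1, Nova2, Srrm4, Rbfox2, Rbfox3, Elavl2, Elavl3 and Elavl4. CAD (Cath.-a-differentiated) is a mouse catecholaminergic neuronal cell line that extends neurites when serum is withdrawn. All cultures had been in serum-free medium for 5 days, and each group had 2 libraries. One group received ACSS2i, a quinoxalinyl urea that inhibits ACSS2, an enzyme that makes acetyl-CoA from acetate, for 24 h at 20 µM, and the other received DMSO over the same 24 h. Because this is 1 cell line, the libraries give no measure of variation between animals, and nothing in the labels states that replicate libraries were grown as separate cultures. The p-values therefore reflect spread that may be technical.

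As cells become neurons, the pool of splicing regulators changes. Ptbp1 binds pyrimidine-rich RNA and keeps neuronal exons out of messages, and its decline in differentiating neurons lets its paralog Ptbp2 be made, which releases part of that exon programme. Srrm4 (nSR100) promotes the inclusion of neuronal microexons, Nova and Rbfox proteins bind short motifs near alternative exons, and the neuronal Elavl (Hu) proteins bind AU-rich and U-rich sequences in messages and influence splicing, stability and translation. Gene-level values do not show which exons were included, so splicing itself was not measured here.

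Ptbp1 and Ptbp2 each carry an exon of 34 bases through which their own levels are controlled. Skipping it shifts the reading frame and marks the message for nonsense-mediated decay, and Ptbp1 protein promotes skipping in both genes. The exons are shown because the Ptbp1 and Ptbp2 levels are compared below. They were read from GENCODE M21 transcripts (GRCm38, the build mm10), with the exon in capitals and 20 bases of each neighbouring exon in lower case.
Ptbp1: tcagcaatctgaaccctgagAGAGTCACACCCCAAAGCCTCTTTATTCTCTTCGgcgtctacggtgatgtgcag
Ptbp2: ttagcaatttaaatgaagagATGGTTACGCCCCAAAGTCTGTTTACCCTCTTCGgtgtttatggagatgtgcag
The Ptbp1 exon lies at chr10:79862014-79862047 on the plus strand and is exon 9 of 13 in the transcript used. The Ptbp2 exon lies at chr3:119724612-119724645 on the minus strand and is exon 10 of 14. The exons are identical at 26 of 34 positions. In the annotation, 2 of the 2 Ptbp1 transcripts that skip the exon are classed as nonsense-mediated decay targets, and 2 of the 3 Ptbp2 transcripts that skip it, and 0 skipping transcripts of either gene are classed as protein coding. The deposited value of each gene covers its transcripts together, so the productive and the skipped forms could not be separated.

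The values were taken as FPKM, the fragments of a gene corrected for its transcript length and for the size of the library. On that reading they can be compared between genes, but the unit and the authors' adjustment were not stated. The depth read from the low values of the table was a nominal 7580000 and 9620000 reads in the ACSS2i libraries and 11200000 and 3270000 in the DMSO libraries, so DMSO replicate 2 was the shallowest. The labelled cell type was checked against 13 neuronal and catecholaminergic markers, of which 12 averaged at least 1 FPKM. The neuronal tubulin Tubb3 stood at 121 and 323 FPKM in ACSS2i and 99.0 and 134 FPKM in DMSO, and tyrosine hydroxylase (Th), the first enzyme of catecholamine synthesis, at 4.09 and 2.92 FPKM in ACSS2i and 3.53 and 3.16 FPKM in DMSO. Ddc, the next enzyme of that pathway, was at 0.0671 and 3.17 FPKM in ACSS2i and at 2.45 and 3.73 FPKM in DMSO, so ACSS2i replicate 1 was nearly without it. Dbh, which makes noradrenaline, was at 0.226 and 0.624 FPKM in ACSS2i and at 0.344 and 0.524 FPKM in DMSO. Of 12 markers of glia, microglia, fibroblasts and endothelium, 10 had a mean under 1 FPKM, and their summed level was 6.80 and 6.78 FPKM in ACSS2i and 5.98 and 5.44 FPKM in DMSO. Col1a2 stood at the floor of the table, 0.01 FPKM, in all 4 libraries. Proliferation markers moved with the groups: their summed level was 154 and 289 FPKM in ACSS2i and 52.9 and 80.3 FPKM in DMSO, and their part in the results below was not tested. In bulk samples such as these, fewer cells of a type and less RNA per cell cannot be told apart.

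The clearest difference was in Ptbp2 relative to Ptbp1. Each inhibitor library had more Ptbp2 than either DMSO library, while Ptbp1 overlapped between the groups, so that Ptbp1 exceeded Ptbp2 by 1.58 and 1.69 times with ACSS2i and by 2.70 and 2.94 times with DMSO. Of the 10 genes, 9 had a mean of at least 1 FPKM and were tested with limma, and 0 of these 9 passed an adjusted p of 0.05, against 0.0261% of all 11486 genes tested. At an unadjusted p under 0.05 there was 1 of 9, Ptbp2, against 6.96% of all genes. The groups did not overlap in 3 of the 9, against 37.3% of all genes, a share near that background: 1 of the 9 (Ptbp2) was higher, against 19.0% of all genes, and 2 (Elavl3 and Nova2) were lower, against 18.3%.

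**Figure D1:**
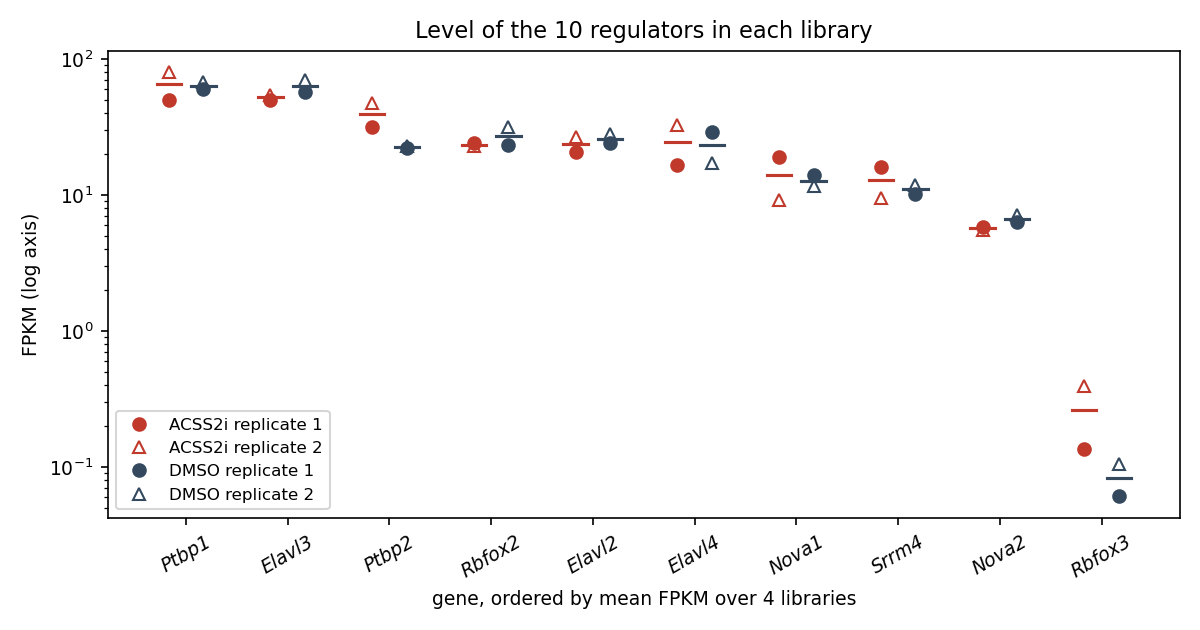
FPKM of the 10 regulators (log axis) in each of the 4 libraries, with ACSS2i in red left of DMSO in blue, filled circles for replicate 1, open triangles for replicate 2 and bars for group means. Ptbp1 and Elavl3 are the most abundant, Ptbp2 is separated between the groups at 31.4 and 47.3 FPKM in ACSS2i against 22.1 and 22.8 FPKM in DMSO, and Rbfox3 lies below 0.4 FPKM in every library.

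Ptbp1 (ENSMUSG00000006498.16, chromosome 10, 79854427 to 79864771, plus strand) was at 49.8 and 80.0 FPKM in ACSS2i replicates 1 and 2, and at 59.6 and 67.0 FPKM in DMSO replicates 1 and 2. The inhibitor libraries were the lowest and the highest of the 4, with the DMSO libraries between them. The group means were 64.9 ± 21.3 FPKM in ACSS2i and 63.3 ± 5.27 FPKM in DMSO (SD, n = 2 each), and the log2 fold change was -0.0015 ± 0.30 (SE; limma, adjusted p = 0.999). The small fold change is therefore a mean of libraries that lay on either side of DMSO: it was 0.33 without ACSS2i replicate 1 and -0.34 without ACSS2i replicate 2. The gene stood at the 92.2nd percentile of all genes above the floor in any library. The messages of Ptbp1 are not unique in sequence. Of 3120 windows of 50 bases in its longest coding transcript, 705 also occur in a transcript of another gene on either strand. Among them are 344 in the antisense gene Gm17134, which shares 437 exonic bases with Ptbp1, and 219 in Gm4900. The neighbouring gene Plppr3, listed under its older symbol Lppr3, shares 251 exonic bases with Ptbp1 on the opposite strand and averaged 7.35 ± 0.491 FPKM in ACSS2i and 17.8 ± 0.245 FPKM in DMSO (SD, n = 2 each), with the groups apart. Whether the counting used strand was not given in the sources used here.

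Ptbp2 (ENSMUSG00000028134.11, chromosome 3, 119718742 to 119784466, minus strand), the neuronal paralog that is later reduced in mature neurons, was at 31.4 and 47.3 FPKM in ACSS2i and at 22.1 and 22.8 FPKM in DMSO. The DMSO libraries lay close together and both inhibitor libraries lay above them, with ACSS2i replicate 2 the highest. The means were 39.3 ± 11.2 FPKM in ACSS2i and 22.5 ± 0.515 FPKM in DMSO (SD, n = 2 each), a ratio of 1.75. The log2 fold change of 0.75 ± 0.27 (SE) stood at the 96.5th percentile of all tested genes, with an unadjusted p of 0.0329 and an adjusted p of 0.668 by limma, so it did not pass. Over the 4 libraries it had the largest fold change of the 9 tested regulators in either direction. Leaving out ACSS2i replicate 1 gave 1.04, and leaving out ACSS2i replicate 2 gave 0.47, below Nova1 (0.54) and Srrm4 (0.51) in the same fit. Of its 3728 windows of 50 bases, 0 occurred in another gene, and nominally 282 reads lay behind its value in DMSO replicate 2, the shallowest library.

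The ratio of Ptbp1 to Ptbp2 does not depend on how a library was scaled. On the log2 scale it was 0.66 and 0.76 in ACSS2i and 1.43 and 1.55 in DMSO. The groups did not overlap, and their means differed by -0.78, where the libraries of a group differed by 0.096 in ACSS2i and 0.12 in DMSO. With 2 libraries per group, such ranges are an uncertain measure of spread. For the ratios of Ptbp1 to the other regulators, they ran from 0.28 (Elavl4) to 1.73 (Nova1) in ACSS2i. In DMSO they ran from 0.014 (Nova2) to 0.93 (Elavl4). An exact permutation test over the 4 libraries gave p = 0.3333 (two-sided), the smallest that 2 against 2 allows. Leaving out any 1 library kept the difference between -0.84 and -0.72. Expressed as a share, Ptbp2 made up 38.7% and 37.1% of the summed Ptbp1 and Ptbp2 level in ACSS2i and 27.1% and 25.4% in DMSO. As background, the ratio of Ptbp1 to each of the other 11485 tested genes did not overlap between the groups in 25.6%, was lower with no overlap in 13.2%, and was lower with no overlap by at least as much as for Ptbp2 in 3.76%.

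Among the ratios of Ptbp1 to each of the 9 neuronal regulators, the groups did not overlap in 2. The share was 25.6% for the ratios of Ptbp1 to all other tested genes, so 2 of 9 is not above that background. These 2 were the ratios to Ptbp2 and to Rbfox3, and the Rbfox3 ratio rests on a few reads. Rbfox3 is also not among the tested genes behind the 25.6%, so the count and the share cover unlike sets of genes. The groups overlapped in the ratios of Ptbp1 to Srrm4, to the Nova and Elavl genes and to Rbfox2. Ptbp1 relative to the sum of all 9 was 0.271 and 0.385 in ACSS2i and 0.321 and 0.336 in DMSO. Here too the inhibitor libraries were the lowest and the highest. The mean log2 ratio differed by -0.025 between ACSS2i and DMSO, and the sign changed when ACSS2i replicate 1 (0.23) or DMSO replicate 2 (0.0089) was left out. The summed level of the 9 was 183 and 208 FPKM in ACSS2i and 186 and 199 FPKM in DMSO. This sum weights genes by their level and includes Ptbp2. Elavl3, its most abundant member, averaged 52.0 FPKM in ACSS2i and 63.1 FPKM in DMSO, while Ptbp2 averaged 39.3 and 22.5 FPKM. Ptbp2 relative to the sum of the other 8 was 0.207 and 0.294 in ACSS2i and 0.135 and 0.129 in DMSO, with the groups apart.

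**Figure D2:**
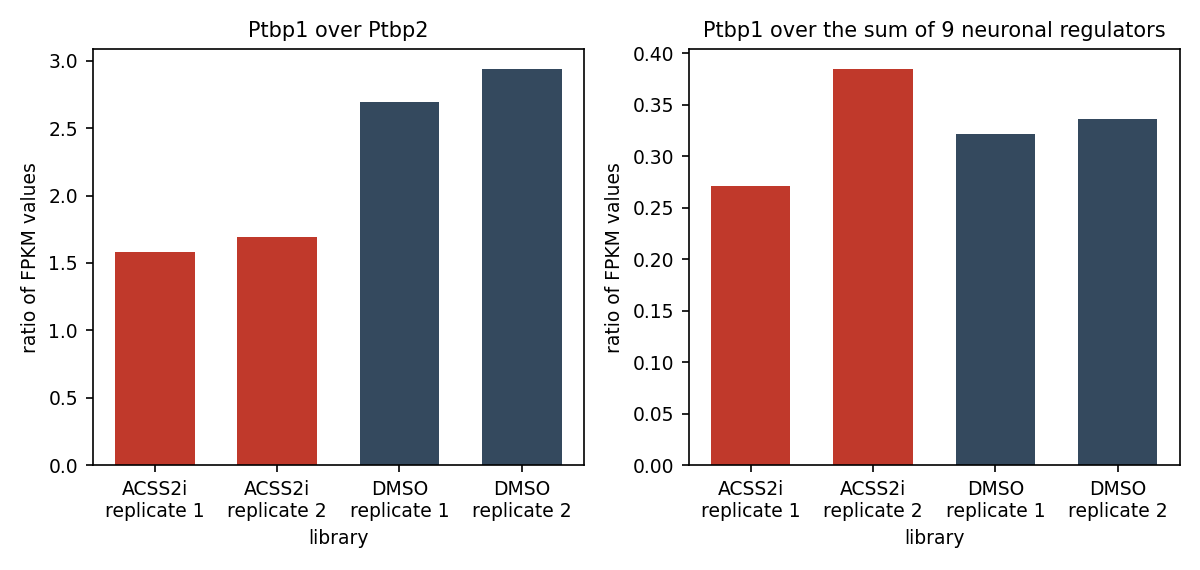
Ratio of the Ptbp1 FPKM to the Ptbp2 FPKM (left) and to the summed FPKM of the 9 neuronal regulators (right) in each library, as bars from 0, with ACSS2i in red and DMSO in blue. The ratio to Ptbp2 is 1.58 and 1.69 in ACSS2i and 2.70 and 2.94 in DMSO, while the ratio to the sum spans 0.271 to 0.385 in ACSS2i, around both DMSO libraries.

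Srrm4 (ENSMUSG00000063919.11, chromosome 5, 116439275 to 116591817, minus strand), the activator of neuronal microexons, was at 16.0 and 9.45 FPKM in ACSS2i and at 10.2 and 11.8 FPKM in DMSO. ACSS2i replicate 1 was the highest library and ACSS2i replicate 2 the lowest, so the groups overlapped. The log2 fold change was 0.16 ± 0.30 (SE; limma, adjusted p = 0.947), and it was -0.19 without ACSS2i replicate 1 and 0.51 without ACSS2i replicate 2. Srrm4 has an antisense neighbour, Srrm4os, that shares 68 exonic bases with it.

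Of the Nova genes, whose proteins bind clusters of YCAY motifs, Nova1 (ENSMUSG00000021047.7, chromosome 12, 46694517 to 46818929, minus strand) was at 18.9 and 9.18 FPKM in ACSS2i and at 13.9 and 11.6 FPKM in DMSO. The inhibitor libraries again enclosed the DMSO libraries, and the log2 fold change was 0.058 ± 0.36 (SE; limma, adjusted p = 0.982), turning to -0.43 without ACSS2i replicate 1 and to -0.064 without DMSO replicate 2. Nova2 (ENSMUSG00000030411.16, chromosome 7, 18925888 to 18965319, plus strand) was at 5.82 and 5.53 FPKM in ACSS2i and at 6.27 and 7.13 FPKM in DMSO. Both inhibitor libraries lay below both DMSO libraries, by little: the log2 fold change was -0.20 ± 0.23 (SE; limma, adjusted p = 0.900), and -0.12 without DMSO replicate 2. Its value may share reads with another gene, since 2560 of its 8323 windows of 50 bases also occur in Gm26821, an RNA annotated on the opposite strand.

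Rbfox2 (ENSMUSG00000033565.18, chromosome 15, 77078990 to 77307004, minus strand), a splicing factor that is also found outside the nervous system, was at 23.9 and 22.8 FPKM in ACSS2i and at 23.2 and 31.3 FPKM in DMSO. The ACSS2i values and DMSO replicate 1 were close together and DMSO replicate 2 stood above them. The log2 fold change of -0.20 ± 0.25 (SE; limma, adjusted p = 0.907) became 0.0081 without that library. Rbfox3 (ENSMUSG00000025576.17, chromosome 11, 118489762 to 118911597, minus strand) encodes NeuN, the nuclear antigen used to mark mature neurons, and was at 0.135 and 0.390 FPKM in ACSS2i and at 0.0608 and 0.104 FPKM in DMSO. It fell below the expression filter and was not tested with the other genes. Scaled by library depth, its 4 values stood in the ratio of whole numbers to within 0.0473%, at 3 and 11 reads in ACSS2i and 2 and 1 reads in DMSO, if the depths are right and the smallest numbers apply. Exact Poisson 95% intervals, which cover counting error only, were 0.0279 to 0.395 and 0.195 to 0.699 FPKM in ACSS2i and 0.00737 to 0.220 and 0.00264 to 0.581 FPKM in DMSO. Both inhibitor values lay above both DMSO values, at a ratio of group means of 3.18, and no count test was run on reads this few. The log2(FPKM + 1) scale understates such a ratio at this level. In the fit without a filter, Rbfox3 had a log2 fold change of 0.21 ± 0.13 (SE; limma, adjusted p = 1).

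The neuronal Elavl genes had a summed level of 87.2 and 113 FPKM in ACSS2i and 109.9 and 115 FPKM in DMSO. Elavl3 (HuC; ENSMUSG00000003410.8, chromosome 9, 22015005 to 22052023, minus strand) was at 49.9 and 54.1 FPKM in ACSS2i and at 56.7 and 69.5 FPKM in DMSO. Both inhibitor libraries lay below both DMSO libraries, and the log2 fold change of -0.27 ± 0.24 (SE; limma, adjusted p = 0.854) was -0.12 without DMSO replicate 2 and -0.41 without DMSO replicate 1. Of the 4965 windows of 50 bases in Elavl3, 218 also occur in another gene, 207 of them in Gm49318. Elavl2 (HuB; ENSMUSG00000008489.18, chromosome 4, 91250763 to 91400785, minus strand) was at 20.6 and 26.8 FPKM in ACSS2i and at 23.9 and 27.9 FPKM in DMSO. Its groups overlapped (log2 fold change -0.13 ± 0.25, SE; limma, adjusted p = 0.946), with ACSS2i replicate 1 the lowest, and without that library the value was 0.050. Elavl4 (HuD; ENSMUSG00000028546.17, chromosome 4, 110203722 to 110351909, minus strand), which is known to bind and stabilise the Gap43 message, was at 16.7 and 32.5 FPKM in ACSS2i and at 29.2 and 17.2 FPKM in DMSO. Each group held 1 high and 1 low library. The log2 fold change was 0.055 ± 0.40 (SE; limma, adjusted p = 0.986), the widest error of the 9, and it was -0.41 without ACSS2i replicate 2 and -0.31 without DMSO replicate 2.

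**Figure D3:**
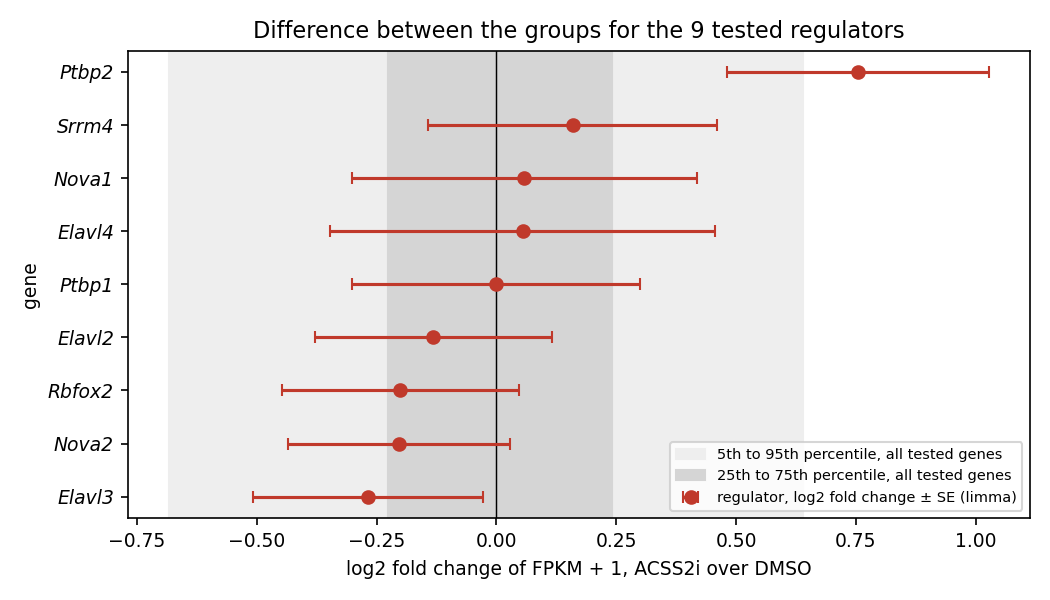
Log2 fold change of FPKM + 1 (ACSS2i over DMSO) with its limma standard error for the 9 tested regulators, over the 5th to 95th and the 25th to 75th percentile of all 11486 tested genes in grey. Ptbp2, at 0.75, lies beyond the 95th percentile (0.64), and the other 8 lie between -0.27 and 0.16.

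By mean level over the 4 libraries the order was Ptbp1 (64.1 FPKM), Elavl3 (57.6), Ptbp2 (30.9), Rbfox2 (25.3), Elavl2 (24.8), Elavl4 (23.9), Nova1 (13.4), Srrm4 (11.9), Nova2 (6.19) and Rbfox3 (0.173). Neighbours in this order differed beyond the range of the libraries in 3 places, between Elavl3 and Ptbp2, between Srrm4 and Nova2, and between Nova2 and Rbfox3. Ptbp1 and Elavl3 exchanged places, with Ptbp1 the higher in 2 of the 4 libraries. Ptbp2 ranked 3 in both ACSS2i libraries, and ranked 6 in DMSO replicate 1 and 5 in DMSO replicate 2.

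The regulators differed from each other in how far the replicates of a group lay apart. Within ACSS2i, Nova1 and Srrm4 were higher in replicate 1, by 0.97 and 0.71 on the log2(FPKM + 1) scale. Elavl4, Ptbp1, Ptbp2 and Elavl2 were lower there than in replicate 2, by differences of -0.92, -0.67, -0.57 and -0.36. The SD of this difference over all tested genes was 0.75. Rbfox2 and Nova2 hardly differed within ACSS2i, at 0.066 and 0.064. The FPKM of all genes summed to 558458 and 675716 in ACSS2i replicates 1 and 2, and to 590549 and 590108 in DMSO. The replicate differences given here were not scaled to a common sum. Within DMSO, Elavl4 had the largest difference, 0.73, against an SD of 0.64 over all genes, and the other regulators lay between -0.42 and 0.25. For Ptbp2 the DMSO libraries differed by -0.045.

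**Figure D4:**
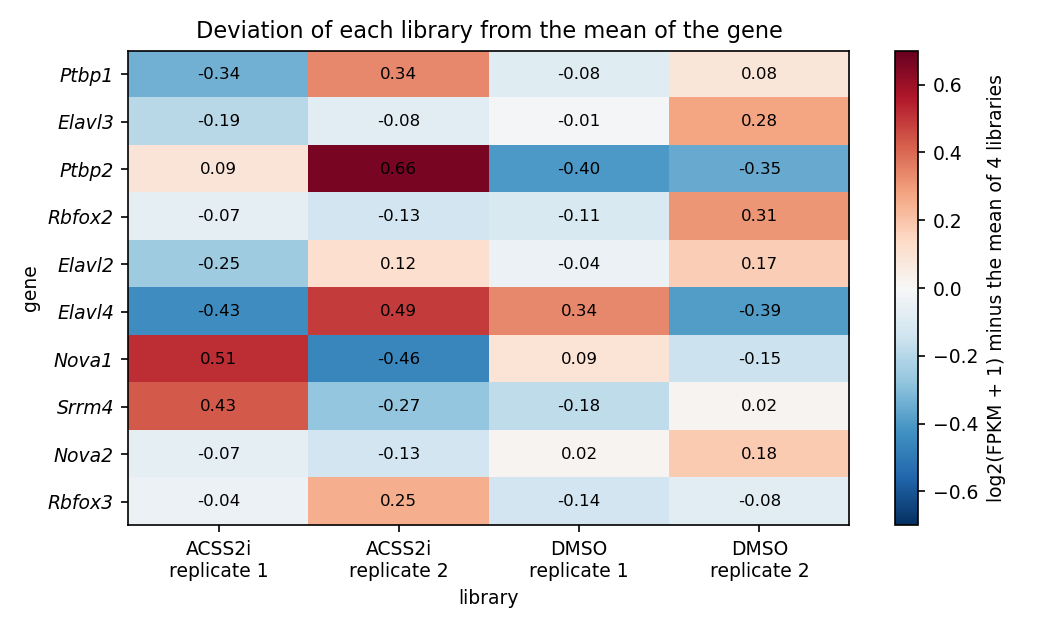
Log2(FPKM + 1) of each regulator (rows, by mean level) in each library (columns) minus the mean of that gene over the 4 libraries, with red above and blue below the mean. Ptbp2 is above its mean in both ACSS2i libraries and below it in both DMSO libraries, whereas Nova1 and Srrm4 are high in ACSS2i replicate 1 (0.51 and 0.43) and low in ACSS2i replicate 2 (-0.46 and -0.27).

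Other RNA-binding regulators gave a setting for these values. Of 23 family relatives and other regulators, 17 were tested and 0 passed the adjusted p of 0.05 by limma, with 2 (Celf5 and Celf4) at an unadjusted p under 0.05. The groups did not overlap in 3 that were higher and 4 that were lower, against 37.3% of all genes in either direction, and 6.96% of all genes had an unadjusted p under 0.05. The median log2 fold change was 0.029, against 0.020 over all tested genes. Of the genes named from this list by their p, Celf5, Celf4 and Celf3 encode proteins that bind GU-rich RNA. Celf5 was at 5.73 and 14.8 FPKM in ACSS2i and at 24.0 and 27.0 FPKM in DMSO (log2 fold change -1.36; limma, unadjusted p = 0.0177, adjusted p = 0.605). Celf4 was at 13.2 and 24.98 FPKM in ACSS2i and at 29.2 and 41.1 FPKM in DMSO. Both inhibitor libraries lay below both DMSO libraries in these genes, whereas Celf3, at 10.7 and 31.4 FPKM in ACSS2i and 39.5 and 30.01 FPKM in DMSO, overlapped. With 1 library left out, the log2 fold change ran from -1.98 to -0.74 for Celf5, from -1.33 to -0.46 for Celf4 and from -1.59 to -0.13 for Celf3, in each case weakest without ACSS2i replicate 1. The groups also overlapped in Celf1 and Celf6, which are named here outside the naming rule, with log2 fold changes of 0.099 and 0.066. Celf2, also in the list, is not described. The muscleblind gene Mbnl2, a splicing factor of later development, was at 16.3 and 23.6 FPKM in ACSS2i and at 27.3 and 33.9 FPKM in DMSO, with a log2 fold change of -0.61 that was -0.35 without ACSS2i replicate 1.

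Some close relatives of the regulators are named here outside the naming rule. Ptbp3 was at 7.93 and 9.83 FPKM in ACSS2i and at 7.30 and 10.2 FPKM in DMSO, and the ubiquitous Elavl1 (HuR) at 24.2 and 22.2 FPKM in ACSS2i and 19.4 and 26.0 FPKM in DMSO. Srrm3, a relative of Srrm4 that also acts on microexons, was at 18.5 and 16.2 FPKM in ACSS2i and at 17.2 and 19.9 FPKM in DMSO, so that its level was above that of Srrm4 in all 4 libraries. Groups overlapped in these 3 genes.

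General splicing factors were described beside them. Of 12 tested SR proteins, which mostly favour exon inclusion, 5 had a positive and 7 a negative log2 fold change, with a median of -0.095. Srsf5, at 199.6 and 289 FPKM in ACSS2i and 445 and 319 FPKM in DMSO, and Srsf6, at 58.1 and 96.9 FPKM in ACSS2i and 151 and 97.1 FPKM in DMSO, were lower in both inhibitor libraries, and Srsf4, at 20.8 and 23.6 FPKM in ACSS2i and 17.9 and 16.1 FPKM in DMSO, was higher. Srsf9 had a log2 fold change of 0.37 and overlapped. The log2 fold changes of Srsf5 and Srsf6, -0.65 and -0.68, were -0.38 and -0.32 without ACSS2i replicate 1. Of 23 tested hnRNP proteins, the class to which the Ptbp proteins belong, 18 were positive and 5 negative. The median of this class was 0.14, against 0.020 over all tested genes. The groups did not overlap in 7 of the 23 that were higher and 2 that were lower. Over all genes those shares were 19.0% and 18.3%, or 37.3% in either direction. Hnrnpc was at 151 and 146 FPKM in ACSS2i and at 108 and 98.0 FPKM in DMSO, and Hnrnpa1 at 105 and 143 FPKM in ACSS2i and 88.5 and 76.5 FPKM in DMSO. Hnrnpk had a log2 fold change of 0.48, and Hnrnpa3 of -0.63, at 45.5 and 47.6 FPKM in ACSS2i and 64.7 and 81.5 FPKM in DMSO. In both lists 0 genes passed the adjusted p of 0.05 by limma. At an unadjusted p under 0.05 there were 0 SR genes and 1 hnRNP gene, Hnrnpa3, against 6.96% of all genes.

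The neuronal and catecholaminergic markers had a median log2 fold change of -0.00063 over 12 tested genes, with 6 positive and 6 negative and 0 past the adjusted p of 0.05 (limma; 0 at an unadjusted p under 0.05). Their summed level was 948 and 1954 FPKM in ACSS2i and 1413 and 1395 FPKM in DMSO, so the inhibitor libraries enclosed the DMSO libraries here as they did for Ptbp1. Syp, Snap25 and Ddc had log2 fold changes of -0.41, -0.42 and -0.94, and Tubb3 and Map2 of 0.78 and 0.092. The value of Tubb3 was 0.075 without ACSS2i replicate 2 and 1.48 without ACSS2i replicate 1, and that of Ddc 0.047 without ACSS2i replicate 1. In all 10 proliferation markers each inhibitor library lay above each DMSO library, with a median log2 fold change of 2.04 and 0 past the adjusted p of 0.05 (limma; 10 at an unadjusted p under 0.05). Mki67 was at 22.2 and 24.9 FPKM in ACSS2i and at 1.18 and 4.13 FPKM in DMSO.

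**Figure D5:**
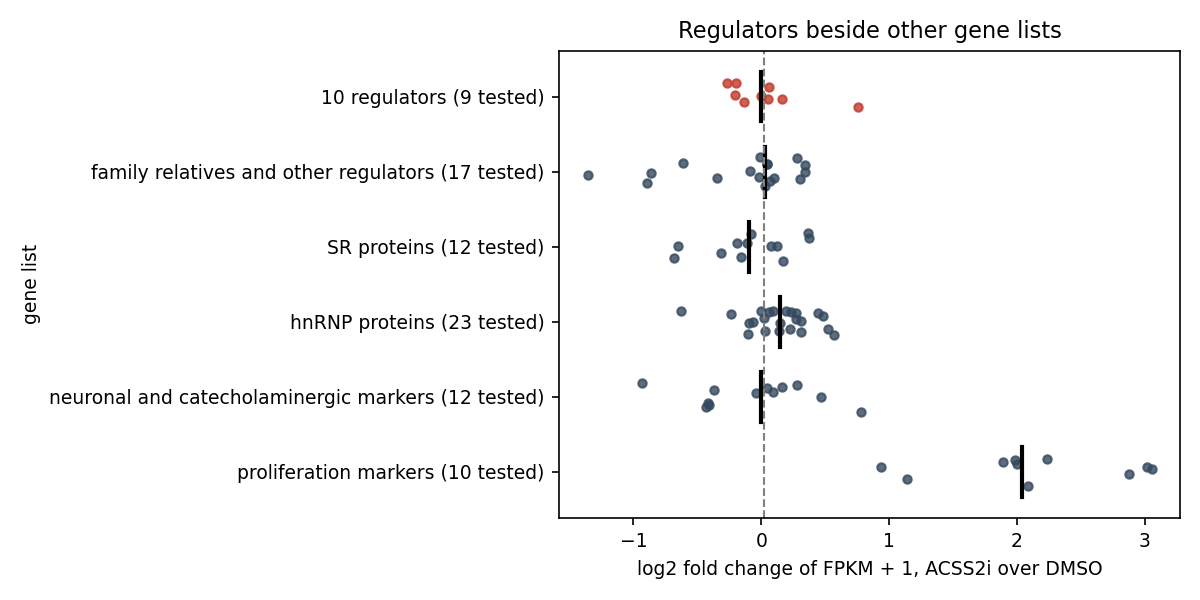
Log2 fold change of FPKM + 1 (ACSS2i over DMSO) of each tested gene in the regulators (red) and in 5 other gene lists (blue), with a black bar at each list's median and a dashed line at the median of all tested genes (0.020). The regulators have a median of -0.0015, with Ptbp2 apart at 0.75, and the proliferation markers have a median of 2.04.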

How the data were processed

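Polyadenylated RNA of CAD cells was sequenced as 4 ScriptSeq v2 libraries on 1 NextSeq lane, per the labels' protocols. The deposited values, 1 per gene and library, were taken as FPKM because the submitters' processing notes name Cufflinks 2.2.1 and Cuffdiff besides bcl2fastq 02.14.01.07, STAR 2.3.0 and the build mm10. The header gives no unit, and the nature of the authors' adjustment, the annotation and any use of strand are not given in the sources used here. Every library has a floor of 0.01. One gene (Sept7) with a failed value was left out, which left 24340 genes.

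Genes averaging 1 FPKM or more, 11486 in all, were tested as log2(FPKM + 1), a scale that understates the change of low genes, with limma 3.58.1 (R 4.3.3; mean-variance trend, two-sided, Benjamini-Hochberg over all genes, threshold 0.05). The fit was also run on simulated data with the same independent noise for every gene. That run does not show how many true changes would be missed in these libraries. Ratios between genes used FPKM without a pseudocount. Relative depths, 0.675 and 0.857 in the ACSS2i libraries and 1 and 0.292 in the DMSO libraries, were the most common ratios among values up to 0.5 FPKM, and nominal reads came from 62 single-transcript genes, so a depth wrong by a whole factor is possible. Whole reads were not recovered for most genes, so no count test was run.

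The members and lists were chosen with earlier results of these data known. The named genes were the 10 members, up to 4 genes with the smallest unadjusted p in each of 6 lists, Tubb3, Map2, Th and Mki67, and the 5 genes nearest to Ptbp1 in profile. The alternatives were pseudocounts of 0.1 and 5, no filter, a mean of at least 5 FPKM, quantile normalization, scaling to a common sum, no mean-variance trend, a replicate block and leaving out each library.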

Additional observations from a re-analysis of the deposited data

How the results depend on the processing

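Of the 9 tested regulators 0 passed the adjusted p of 0.05 under any of the 12 alternatives, and at most 1 had an unadjusted p under 0.05. Over all genes the number past it was 3, and it was 6 with a pseudocount of 0.1, 0 with a pseudocount of 5 (795 at an unadjusted p under 0.05), 0 without a filter (1342 unadjusted), 6 with each library scaled to a common sum, and 13 to 26 with 1 library left out, where the lone library is assumed to vary like the intact pair. With the replicate number as a block, 8 genes passed the adjusted p of 0.05. The numbers do not pair the libraries by any label, and the correlation of same-numbered deviations was -0.017 across genes; under the block Top2a, with a log2 fold change of 3.05, passed at an adjusted p of 0.0336 by limma. The log2 fold change of Ptbp2 stayed between 0.47 and 1.04 over the 12 alternatives. In those that kept all 4 libraries its adjusted p ran from 0.641 to 0.969 (limma). The Ptbp1 to Ptbp2 log2 ratio was rerun only with pseudocounts of 1 and 5 and with each library left out. Its difference between the groups lay between -0.84 and -0.67. The sign of the Ptbp1 fold change turned with a pseudocount of 5 (0.000615), and Elavl4 turned to -0.0018 with scaling to a common sum. With 1 library left out, the range ran through 0 for 6 regulators: Ptbp1 (-0.34 to 0.33), Nova1 (-0.43 to 0.54), Srrm4 (-0.19 to 0.51), Rbfox2 (-0.41 to 0.0081), Elavl2 (-0.31 to 0.050) and Elavl4 (-0.41 to 0.51). It did so for the log2 ratio of Ptbp1 to the sum of the 9 (-0.28 to 0.23) and, in the lists, for Mbp (-0.063 to 0.27), Ddc (-1.92 to 0.047), Snap25 (-0.88 to 0.048), Map2 (-0.20 to 0.39), Th (-0.15 to 0.23) and Srsf9 (-0.082 to 0.82). The cause was not tested. Depth limits Rbfox3 most, at 1 to 11 reads per library.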

Other observations

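Mir124a-1hg, the host transcript of a neuronal microRNA that is known to target Ptbp1, was at 0.827 and 0.676 FPKM in ACSS2i and at 1.34 and 1.06 FPKM in DMSO. Both inhibitor libraries lay below both DMSO libraries, at a mean of 0.978 FPKM that left it under the expression filter. In the fit without a filter its log2 fold change was -0.33 ± 0.12 (SE; limma, unadjusted p = 0.0742, adjusted p = 0.998). Rest, the repressor of neuronal genes in non-neuronal cells that also acts on Srrm4, was at 3.39 and 2.12 FPKM in ACSS2i and at 2.46 and 1.47 FPKM in DMSO, with overlap. Rbfox1, the remaining Rbfox gene, was at 0.848 and 0.978 FPKM in ACSS2i and at 0.552 and 0.491 FPKM in DMSO, so its inhibitor libraries were the higher. These 3 genes were picked after their values were seen.

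Among genes averaging 5 FPKM or more, the 5 whose centred log2(FPKM + 1) profile over the 4 libraries lay nearest to that of Ptbp1 were Hagh, Nme1, Ift81, Mrpl33 and Hoxc9, with root mean square differences of 0.011 to 0.033. Hagh, for example, was at 11.95 and 19.3 FPKM in ACSS2i and at 14.5 and 16.4 FPKM in DMSO. With 4 libraries such likeness is common: 205 of 8661 genes lay within 0.1.

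The Ptbp1 neighbour Plppr3, a phospholipid phosphatase-related protein of neurons, had a log2 fold change of -1.17 ± 0.22 (SE; limma, unadjusted p = 0.00173, adjusted p = 0.393), and was also named after its values were seen.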
